A study of Mus musculus with 8 samples.

Results

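The genes described here fold, modify and export proteins through the endoplasmic reticulum (ER). They were 35 genes named for their roles as ER chaperones, disulfide enzymes, parts of the unfolded protein response, ER-associated decay factors and parts of the translocon. All 35 stood in both deposited tables, among 11743 genes shared by the tables, and all 35 were among the 10321 genes that passed a filter of a mean of 1 RPKM in the input mRNA libraries and in the footprint libraries. The rule that names them uses no measured value.

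The study asked how the m6A methyltransferase Mettl3 acts on mature dendritic cells, and here its ribosome profiling was analysed. Ribosome profiling sequences the mRNA fragments that ribosomes shield from nuclease (ribosome-protected fragments, RPF) beside the poly(A) mRNA of the same lysate (input), and RPF over input is the translation efficiency. One group was Mettl3KO dendritic cells, labelled Mettl3-/-, from C57BL/6 mice in which Cre recombinase under the CD11c promoter removes exons 2 to 4 of Mettl3. The other was Mettl3WT dendritic cells of the same strain, labelled wild type. The paper gives the KO mice as Mettl3fl/fl CD11c-Cre and the WT mice as Mettl3fl/fl, so only the KO genotype names Cre. Both kinds were grown from the bone marrow of 6-week-old mice with GM-CSF at 10 ng/ml and IL-4 at 1 ng/ml, selected on CD11c beads and stimulated with LPS at 100 ng/ml for 24 h, so an unstimulated control was not analysed here. Each genotype had 2 replicates and each replicate an RPF and an input library, which gives 8 libraries from 4 lysates. The RPF came from the 80S monosome peak of a sucrose gradient and were cut from a gel between size markers of 21 and 42 nt. Because Cre acts only where CD11c is expressed, cells that had not expressed it would keep Mettl3. The methods speak of 6 pairs of WT and littermate KO mice. Neither they nor the labels say which animals gave which lysate. Each p-value therefore measures only spread between these lysates that the terms of its fit leave over, which may be biological or technical.

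Secreted and membrane proteins enter the ER through the Sec61 channel, lose their signal peptide and fold with the help of luminal chaperones and disulfide isomerases, while misfolded chains are drawn back to the cytosol and degraded. When unfolded chains build up, the sensors Ire1 (Ern1), Atf6 and Perk switch on the unfolded protein response, which raises the transcription of the same chaperones, and Ire1 does so by cutting a short stretch out of the Xbp1 mRNA. Dendritic cells are known for constant Ire1 and Xbp1 activity, and LPS maturation loads their ER with cytokines and MHC molecules.

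Several facts of the whole data set bear on these genes. In replicate 2 the deposited RPKM values could be turned back into reads, with library totals of 5276406 (KO) and 4835140 (WT) for RPF and 8794578 (KO) and 9920474 (WT) for input, while the depth of replicate 1 is unknown. Mettl3 itself had an input level of 6.27 and 11.9 RPKM in the KO libraries of replicates 1 and 2, against 6.97 and 10.1 RPKM in WT, so its mRNA did not mark the libraries labelled KO. The value covers the whole gene and not only the deleted exons. Its RPF level was 15.3 and 5.88 RPKM in KO, against 34.0 and 9.63 RPKM in WT, the last pair being 54 and 81 reads. The median gene of the RPF libraries differed by -0.48 (log2 KO over WT) in replicate 1 and by 0.01 in replicate 2, so every difference below was taken relative to the median gene of its library, on the log2(RPKM + 0.5) scale. All 8 dendritic cell markers examined were listed in both replicates. Their median log2 ratio of KO over WT was 0.45 and -0.16 in input and 0.22 and -0.65 in RPF, for replicates 1 and 2. Neutrophil markers summed to 1078 and 2883 RPKM of input in KO, against 1727 and 3191 RPKM in WT, and 9 of the 10 tested were lower in KO in both replicates. In RPF 7 of the 10 were higher in KO in both replicates relative to the median gene, with a median log2 ratio of 0.42 and 0.31. Mast cell and basophil markers were lower in input in both replicates for 4 of 5 tested, and in RPF for 2 of 5. Macrophage markers summed to 7768 and 13660 RPKM of input in KO and to 10930 and 10390 RPKM in WT. Lyz2 alone gave 6936 and 12407 RPKM of these sums in KO and 9787 and 9345 RPKM in WT. The median log2 ratio of the 8 tested macrophage markers in input was -0.45 and 0.53. The part of these other cells in the results was not tested, and in bulk lysates fewer cells of a type and less RNA per cell cannot be told apart.

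Most of the ER genes were abundant mRNAs. Their median stood at the 85.7th percentile of mean input level among all tested genes, 11 were in the top 10% and only Atf6 and Ern1 lay below the median gene. The highest was Calr, which encodes calreticulin, the lectin chaperone that holds monoglucosylated glycoproteins, with 383 and 472 RPKM of input in KO and 443 and 470 RPKM in WT. Pdia3, the disulfide isomerase that works with calreticulin and calnexin, had 164 and 281 RPKM in KO and 194 and 216 RPKM in WT. Hspa5 (chr2:34772090-34776529 in RefSeq on GRCm38.p6), which encodes BiP, the Hsp70 of the ER and the chaperone that keeps the stress sensors silent, had 144 and 242 RPKM in KO and 198 and 225 RPKM in WT. For all 3 genes the KO library was below WT in replicate 1 and above it in replicate 2, and the genotypes overlapped.

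At the other end stood the stress sensors. Ern1, the kinase and nuclease Ire1, had an input level of 4.90 and 15.2 RPKM in KO, against 6.99 and 13.3 RPKM in WT. Atf6, a membrane-bound transcription factor that is released by cleavage in the Golgi, had 6.30 and 8.49 RPKM in KO and 7.68 and 8.36 RPKM in WT. Ssr1, the alpha subunit of the TRAP complex that sits beside the Sec61 channel, had 8.22 and 18.1 RPKM in KO and 13.0 and 16.1 RPKM in WT. Averaged over genotype, the levels of these 3 genes differed more between the replicates than the genotypes did, and the tables may have been normalized separately.

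**Figure D1:**
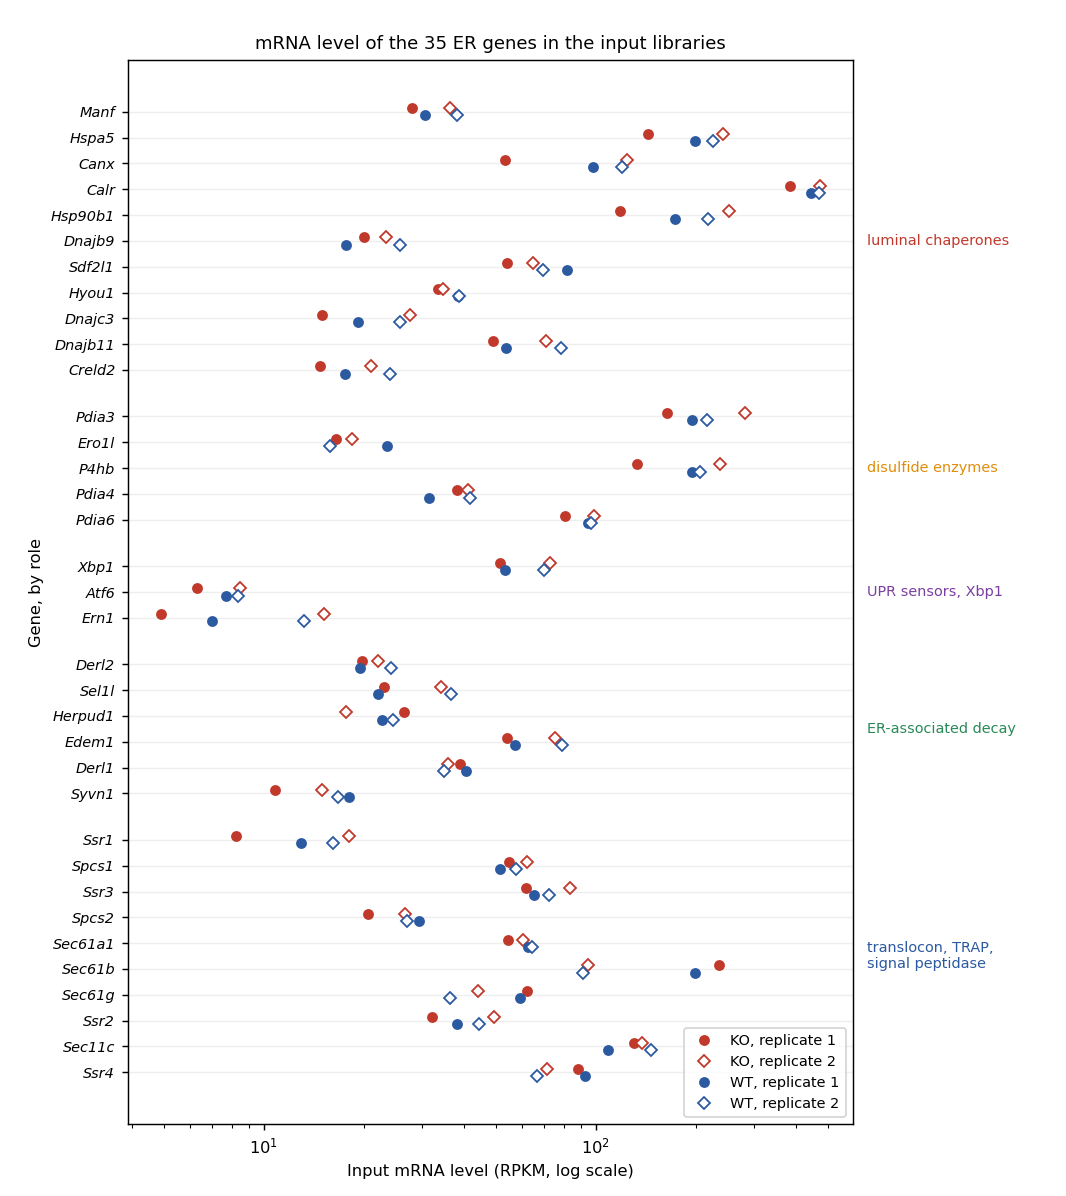
Input mRNA level (RPKM, log scale) of the 35 ER genes, grouped by role, in the KO libraries (red) and the WT libraries (blue) of replicate 1 (filled circles) and replicate 2 (open diamonds). Calr lies highest, at 383 to 472 RPKM in the 4 libraries, and Atf6 and Ern1 lie lowest.

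Some of these genes share a promoter sequence. The ER stress response element (ERSE) is the letters CCAAT and CCACG with any 9 bases between them, and in mammals it is bound by NF-Y and by Atf6. In the RefSeq promoters of build GRCm38.p6, taken from 250 bases before to 50 bases after each gene start and read on both strands, this element was present in 8 of the 28 ER genes with a promoter in the table (28.57%), against 37 of 27025 genes in all (0.137%). The shorter ERSE-II, ATTGG and CCACG with 1 base between them, was present in 2 of the 28 and in 12 of all genes (0.0444%). The Xbp1-type element, TGACG followed directly by TGG, was found in 0 of the 28 and in 193 of all genes (0.714%). The 37 genes with an ERSE include the 8 ER genes. The element is named for the stress response of such genes, so these shares describe the list and were not tested. The matches are shown because the genes that hold an ERSE are described together in the footprints below. The letters of each motif are in capitals, with their flanks in lower case, and each line runs 5′ to 3′ on the strand given. The ERSE matches lay between positions -212 and -26 from the gene start.
Hspa5 (chr2:34772020-34772048, plus strand): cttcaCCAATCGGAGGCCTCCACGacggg
Hsp90b1, distal site (chr10:86705633-86705661, minus strand): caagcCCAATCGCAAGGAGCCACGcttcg
Hsp90b1, proximal site (chr10:86705528-86705556, plus strand): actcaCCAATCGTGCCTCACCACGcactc
Calr (chr8:84847070-84847098, plus strand): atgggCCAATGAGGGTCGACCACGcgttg
Canx (chr11:50325795-50325823, minus strand): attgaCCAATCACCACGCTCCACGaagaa
Creld2 (chr15:88819515-88819543, minus strand): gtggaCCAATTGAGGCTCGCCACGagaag
Dnajc3 (chr14:118937822-118937850, plus strand): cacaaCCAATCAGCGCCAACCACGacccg
Pdia6 (chr12:17266486-17266514, plus strand): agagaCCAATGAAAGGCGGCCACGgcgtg
Syvn1 (chr19:6046527-6046555, plus strand): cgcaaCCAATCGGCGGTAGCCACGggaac
Herpud1, ERSE-II (chr8:94386368-94386396, plus strand): cgggcgctgATTGGGCCACGttggacact
Dnajb11, ERSE-II (chr16:22857843-22857871, plus strand): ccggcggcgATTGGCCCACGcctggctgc
A match describes these letters only and is not a measurement of binding in these cells. The 8 genes with an ERSE had a median input level of 95.6 RPKM, against 41.0 RPKM for the 27 other ER genes, 7 of which had no promoter in the table.

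Footprints per mRNA were above the median gene for most luminal chaperones and disulfide enzymes in both genotypes. Some stood barely above it, such as Pdia6 at 1.01-fold and Hsp90b1 at 1.05-fold in the KO lysate of replicate 2. Relative to the median gene of the lysate, the translation efficiency of 18 of the 35 genes was above 0 in all 4 lysates, against 22.4% of the 10098 genes with a level, and 1 gene was below 0 in all 4, against 23% of all genes. By role, 9 of 11 luminal chaperones, 4 of 5 disulfide enzymes, 1 of 3 stress response genes (Xbp1), 1 of 6 decay factors (Derl2) and 3 of 10 translocon, TRAP and signal peptidase genes were above the median gene in all 4 lysates. The median of the 35 genes was 0.88 (KO) and 0.55 (WT) in replicate 1 and 0.77 (KO) and 1.06 (WT) in replicate 2, on the log2 scale.

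Hspa5 and Manf were the only members at least 2-fold above the median gene in all 4 lysates, a height reached by 4.16% of all genes. Manf, a secreted ER protein known to bind BiP, had a log2 level of 1.80 and 2.58 in KO and of 1.41 and 2.50 in WT. Hspa5 had a log2 level of 2.59 and 1.37 in KO and of 1.86 and 1.95 in WT. Canx, the membrane-bound lectin chaperone calnexin, had 3.51 and 0.83 in KO and 1.70 and 1.48 in WT. The mean levels were 2.07 ± 0.27 for Manf, 1.94 ± 0.30 for Hspa5 and 1.88 ± 0.32 for Canx (SE of the fit, n = 4 lysates), so these 3 did not differ beyond their errors. The fit holds the replicate as a term, so these errors leave out the difference between the replicates.

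The lowest levels belonged to Ssr4, Sec11c and Syvn1. Sec11c, a catalytic subunit of signal peptidase, was the member below the median gene in all 4 lysates, by at least 2-fold, as were 5.04% of all genes, with a log2 level of -3.54 and -1.14 in KO and of -2.51 and -1.37 in WT. Its mRNA was abundant, with 130 and 138 RPKM of input in KO and 109 and 146 RPKM in WT, while its RPF level was 18.7 and 62.8 RPKM in KO and 44.4 and 55.7 RPKM in WT. Ssr4, the delta subunit of TRAP, and Syvn1, the ubiquitin ligase Hrd1 of ER-associated decay, were low in replicate 1 alone. Ssr4 had a log2 level of -6.87 (KO) and -5.58 (WT) in replicate 1, and of 0.31 (KO) and 0.46 (WT) in replicate 2. Syvn1 had a log2 level of -3.82 (KO) and -5.70 (WT) in replicate 1, and of 0.53 (KO) and 0.68 (WT) in replicate 2. The replicates lay further apart than the genotypes, and within replicate 1 these 2 genes also had the highest (Syvn1, 1.88) and the lowest (Ssr4, -1.28) log2 ratio of KO over WT in translation efficiency of all members. The RPF level behind them in replicate 1 was 0.868 RPKM (KO) and 0.328 RPKM (WT) for Syvn1 and 0.801 RPKM (KO) and 4.04 RPKM (WT) for Ssr4, low against the pseudocount of 0.5 RPKM, so the mean of such a gene describes neither table.

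That split between the tables ran through 10 members. Herpud1, Syvn1, Edem1, Derl1, Sec61a1, Sec61b, Ssr2 and Ssr4 were below the median gene in both lysates of replicate 1 and above it in both of replicate 2, 8 of 35 against 10.2% of all genes. Ern1 and Sec61g did the opposite, 2 of 35 against 10.2% of all genes. Decay factors had a median log2 level of -1.06 (KO) and -0.88 (WT) in replicate 1 and of 0.56 (KO) and 0.76 (WT) in replicate 2. Luminal chaperones had 1.09 (KO) and 1.15 (WT) in replicate 1 and 0.83 (KO) and 1.22 (WT) in replicate 2. Across the 35 genes the levels of the replicates, averaged over genotype, correlated with r = 0.258, and KO and WT correlated with r = 0.915 within replicate 1 and r = 0.872 within replicate 2. Across all 10098 genes these were 0.351, 0.776 and 0.839. Genes are not independent replicates, and the libraries of a replicate share a table.

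**Figure D2:**
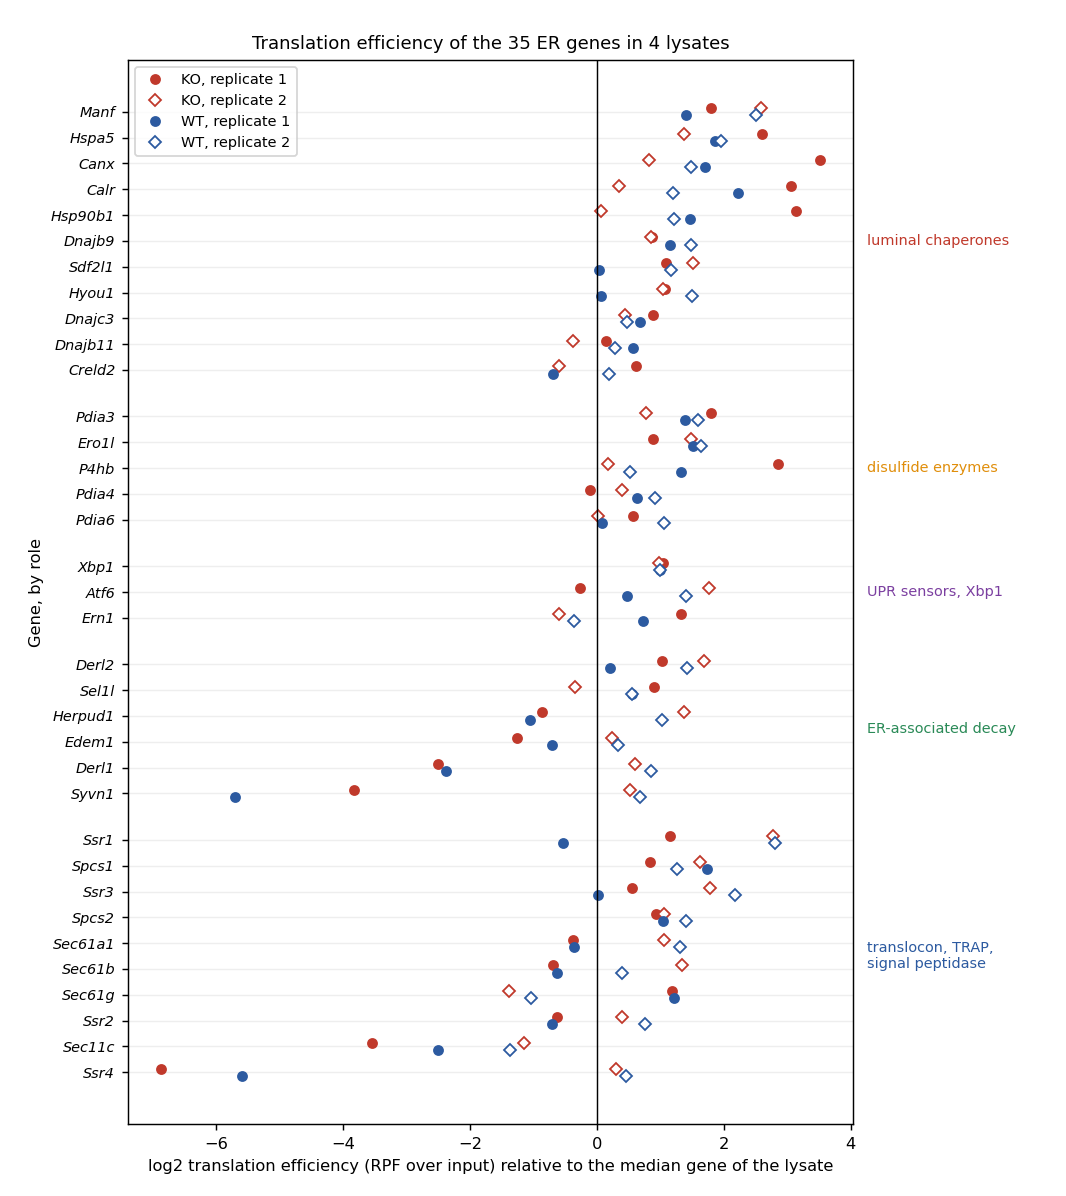
Translation efficiency (log2 RPF over input, relative to the median gene of each lysate, drawn at 0) of the 35 ER genes in the KO lysates (red) and WT lysates (blue) of replicate 1 (filled circles) and replicate 2 (open diamonds). Most chaperones lie to the right of 0 in all 4 lysates, and Ssr4 and Syvn1 lie far to the left in replicate 1 alone.

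By limma, with genotype and replicate as terms, 18 members were called above the median gene and 4 below it at an adjusted p of 0.05, against 23.9% and 25.5% of the 10098 genes. These 18 are not the same 18 that were above the median gene in all 4 lysates. Atf6 and Ssr1 were called though below it in 1 lysate of replicate 1 (log2 -0.26 in KO and -0.53 in WT). Pdia6 and Dnajc3 were above it in all 4 lysates and were not called. The adjusted p was 3.6e-05 for Manf, 0.00014 for Hspa5, 0.000299 for Canx, 0.00679 for Xbp1 and 3.85e-05 for Sec11c. Of the 4 genes called below the median gene, Syvn1, Derl1 and Ssr4 were below it in replicate 1 only, as given above. The replicate term takes the difference between replicates out of the error, so the p-values here do not measure it. Ssr4 thus had an adjusted p of 3.61e-06 at log2 levels that ran between -6.87 and 0.46. Without the replicate term no gene of the table was called, and without one lysate the members called above the median gene numbered 1 (KO replicate 1), 5 (KO replicate 2), 0 (WT replicate 1) and 0 (WT replicate 2).

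Whether loss of Mettl3 changed the mRNA of these genes was asked of the input libraries. No ER gene passed the test. By limma with the replicate as a block, 0 of the 10321 genes were called higher (0%) and 0 lower (0%), and 170 were higher (1.65%) and 208 lower (2.02%) at an unadjusted p of 0.05, none of them a member. The members were close together: the log2 ratio of KO over WT lay between -0.82 and 0.33 in replicate 1 and between -0.44 and 0.38 in replicate 2. Of the 35, 3 were higher in KO in both replicates, against 24.3% of all genes, and 9 were lower in both, against 21.8%. In replicate 1, 26 members were lower in KO, against 47.3% of all genes, and 17 of the 26 were higher in KO in replicate 2.

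The members highest in KO in both replicates were small membrane proteins of the entry site. Sec61g, the gamma subunit of the Sec61 channel, had 62.1 and 44.1 RPKM of input in KO and 59.2 and 36.4 RPKM in WT. Sec61b, its beta subunit, had 235 and 94.5 RPKM in KO and 199 and 91.5 RPKM in WT. Spcs1, a small subunit of signal peptidase, had 54.9 and 62.1 RPKM in KO and 51.4 and 57.6 RPKM in WT. The mean log2 ratios were 0.20 ± 0.18 for Sec61g, 0.17 ± 0.21 for Sec61b and 0.13 ± 0.18 for Spcs1 (SE, adjusted p = 1 for each), and none passed the test.

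The members lowest in KO in both replicates were Syvn1, Sdf2l1 and Spcs2. Syvn1 had 10.8 and 15.0 RPKM of input in KO and 18.0 and 16.8 RPKM in WT. Sdf2l1, a partner of the ER Hsp40 proteins, had 53.8 and 64.9 RPKM in KO and 81.6 and 69.1 RPKM in WT. Spcs2, another signal peptidase subunit, had 20.6 and 26.7 RPKM in KO and 29.3 and 27.0 RPKM in WT. For all 3 genes the gap was wide in replicate 1 and narrow in replicate 2. The mean log2 ratios were -0.40 ± 0.19 for Syvn1, -0.31 ± 0.20 for Sdf2l1 and -0.22 ± 0.18 for Spcs2 (SE, adjusted p = 1 for each).

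In footprints the replicates went in opposite directions for many chaperones. The median absolute log2 ratio of the 35 genes was 0.488 and 0.285 in RPF, beside 0.196 and 0.114 in input, for replicates 1 and 2. All tested genes had 0.614 and 0.356 in RPF, beside 0.206 and 0.139 in input, so the wider spread of footprints was that of the whole data set. No member was called in RPF by limma, and 0 of 10321 genes were called higher (0%) or lower (0%), with 216 higher (2.09%) and 163 lower (1.58%) at an unadjusted p of 0.05 and no member among them. Relative to the median gene, 6 members were higher in KO in both replicates, against 23.5% of all genes, and 9 were lower in both, against 25.4%. A further 15 were higher in replicate 1 and lower in replicate 2, against 27.4%, and 5 went the other way, against 23.7%. In all, 14 members were lower in KO in replicate 1, against 49.2% of all genes, and 24 in replicate 2, against 52.8%. As deposited, without the shift to the median gene, the 4 counts were 3, 16, 8 and 8, so the direction of members in replicate 1 depends on that choice. On that scale the median gene itself was lower in KO in replicate 1 (log2 -0.48), and the shares of all genes were not counted.

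Hspa5 had an RPF level of 1491 and 631 RPKM in KO and of 1675 and 861 RPKM in WT. Relative to the median gene, the log2 ratio of KO over WT was 0.31 in replicate 1, where the RPKM themselves were lower in KO, and -0.45 in replicate 2, where 6546 reads in KO stood against 8181 in WT. The mean was -0.07 ± 0.49 (SE, adjusted p = 0.994), so the fit gave BiP no direction.

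The same opposition was seen in most other genes with an ERSE. Hsp90b1, the ER Hsp90 known as Grp94, had an RPF level of 1783 and 266 RPKM in KO and of 1110 and 502 RPKM in WT. Canx had 1047 and 222 RPKM in KO and 746 and 331 RPKM in WT, and Calr had 5478 and 610 RPKM in KO and 4836 and 1075 RPKM in WT. Creld2, a disulfide isomerase-like protein of the stress response, had 39.5 and 13.9 RPKM in KO and 25.5 and 27.4 RPKM in WT. In replicate 1 KO exceeded WT for these 4 genes, and in replicate 2 WT exceeded KO. Of the 8 genes with an ERSE, 7 were higher in replicate 1 and lower in replicate 2 relative to the median gene, and 5 as deposited. Both counts include Syvn1, whose RPF level in replicate 1 was near the pseudocount. Of the 20 members whose promoter was read and held no ERSE, 7 did so relative to the median gene and 2 as deposited, and of the 7 members with no promoter in the table, 1 did so on either scale. The median log2 ratio of the 8 was 0.81 in replicate 1 and -0.70 in replicate 2, beside 0.12 and -0.064 for the 20. The exception among the 8 was Dnajc3, an Hsp40 that also inhibits Perk, with 48.6 and 38.1 RPKM in KO and 73.2 and 35.8 RPKM in WT. P4hb and Hyou1, which are not among the 8, went the same way on both scales. Most of the 8 are luminal chaperones, so motif and role cannot be told apart. The motif was chosen with earlier results of these data known. The values above stand as a description of 2 replicates with opposite signs. The 2 input libraries of replicate 1 differed the other way, with a median log2 ratio of -0.35 for the 8 genes.

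**Figure D3:**
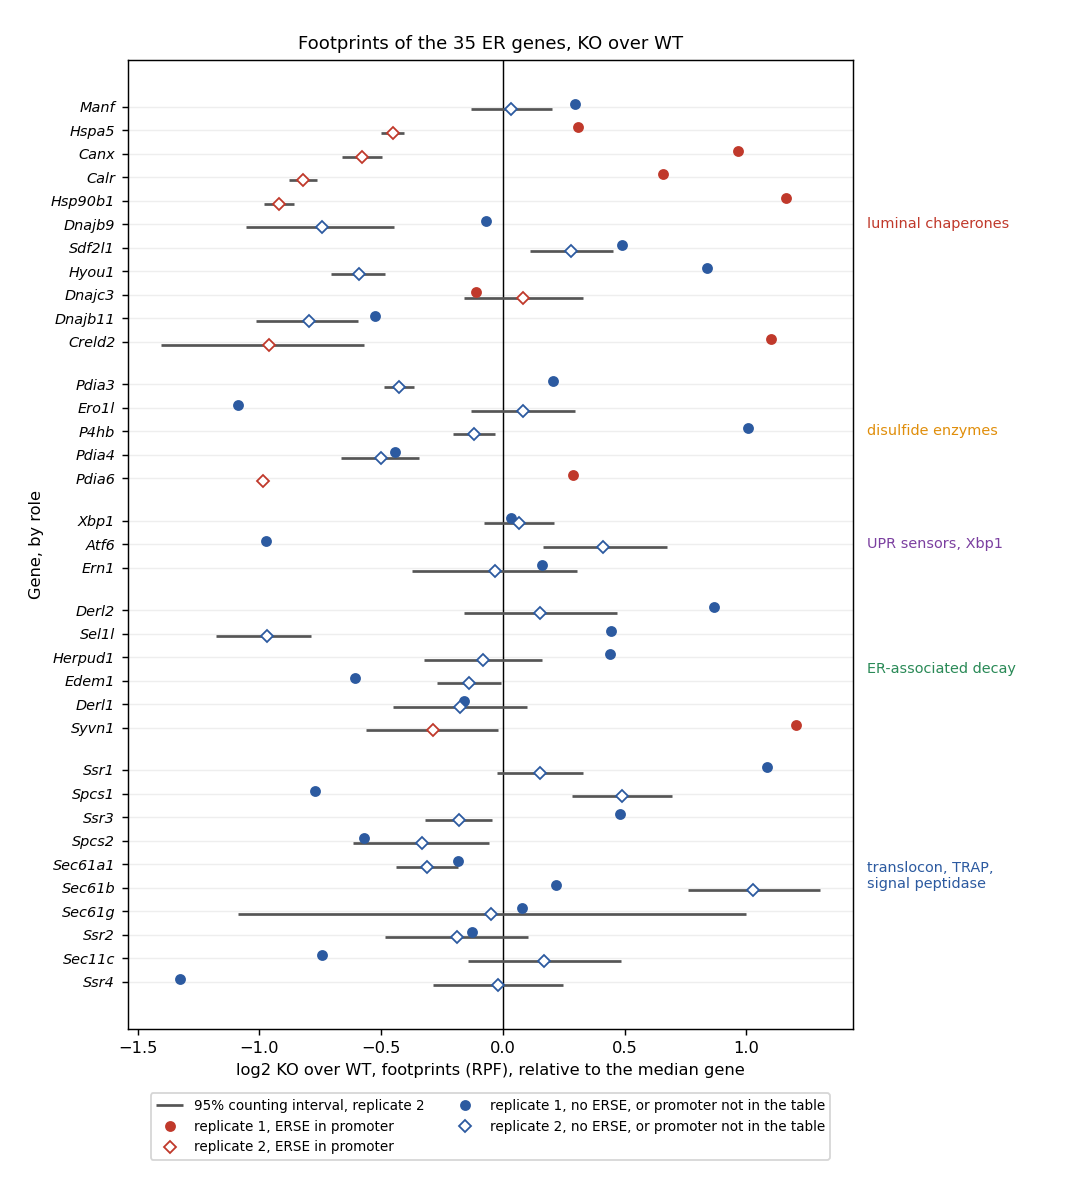
Footprints (RPF) of the 35 ER genes, log2 KO over WT relative to the median gene, in replicate 1 (filled circles) and replicate 2 (open diamonds with a line for the 95% counting interval, drawn for the 34 genes with recovered reads). Red marks the 8 genes with an ERSE, 7 of which lie right of 0 in replicate 1 and left of 0 in replicate 2.

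The reads of replicate 2 show how far counting alone limits these ratios. For the 34 members with recovered RPF reads, the counts ran between 18 and 6546 in KO and between 17 and 8181 in WT. The 95% interval of the ratio lay below the median gene for 17 members, above it for 4 and across it for 13. The share of all genes with such intervals was not counted, so these counts do not set the ER genes apart. The interval covers counting error only, and PCR copies are not independent molecules. Sec61g, on 18 reads in KO and 17 in WT, had an interval between -1.09 and 1.00 on the log2 scale, so a 2-fold difference in its footprints was not detectable at this depth.

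Among members with one direction in both replicates, Sec61b, Ssr1 and Derl2 had the highest mean RPF ratio. Sec61b had an RPF level of 251 and 244 RPKM in KO and of 300 and 119 RPKM in WT, with 371 reads in KO against 166 in WT in replicate 2. Ssr1 had 32.5 and 127 RPKM in KO and 21.2 and 114 RPKM in WT. Derl2, a derlin of the channel that draws misfolded chains out, had 69.8 and 72.7 RPKM in KO and 53.2 and 65.2 RPKM in WT. Their mean log2 ratios were 0.62 ± 0.48 for Sec61b, 0.62 ± 0.50 for Ssr1 and 0.51 ± 0.48 for Derl2 (SE, adjusted p = 0.994 for each), and Sec61b in replicate 1 was lower in KO as deposited.

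The lowest were Ssr4, Dnajb11 and Pdia4. Ssr4 had an RPF level of 0.801 and 89.5 RPKM in KO and of 4.04 and 90.5 RPKM in WT, so its mean rests on replicate 1, where the KO value was near the pseudocount of 0.5 RPKM. Dnajb11, the ER Hsp40 ERdj3 that is a co-chaperone of BiP, had 93.0 and 54.7 RPKM in KO and 187 and 95.1 RPKM in WT. Pdia4, the disulfide isomerase ERp72, had 60.8 and 55.4 RPKM in KO and 116 and 78.3 RPKM in WT. For Dnajb11 and Pdia4 the KO library was below the WT library of its own table in both replicates, by 0.52 and 0.80 for Dnajb11 and by 0.45 and 0.50 for Pdia4 on the log2 scale relative to the median gene. Their mean log2 ratios were -0.66 ± 0.47 and -0.47 ± 0.47 (SE, adjusted p = 0.994 for each).

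Xbp1 and Sec61a1 are given in full for their place in the pathway. Xbp1 (chr11:5520641-5525993), the transcription factor that Ire1 activates, had an RPF level of 182 and 145 RPKM in KO and of 248 and 138 RPKM in WT. Its input was 51.3 and 72.6 RPKM in KO and 53.3 and 69.8 RPKM in WT. Its log2 ratio of KO over WT in RPF was 0.04 and 0.07, with a mean of 0.05 ± 0.46 (SE, adjusted p = 0.996). The stretch of 26 bases that Ire1 removes is shown because the lengths behind the deposited values bear on it, in capitals as RefSeq places it on GRCm38.p6, with flanking bases in lower case.
Xbp1 (chr11:5524276-5524305, plus strand): ccGCAGCACTCAGACTATGTGCACCTCTgc
In replicate 2 the Xbp1 values stood on the spliced transcript, 2221 bases against 2247 for the unspliced one. The tables hold 1 value per gene, so spliced and unspliced reads cannot be told apart, and Ire1 activity was not measured.

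Sec61a1 (chr6:88503607-88518800), the pore-forming subunit of the channel through which secreted proteins enter, had an RPF level of 71.7 and 128 RPKM in KO and of 114 and 158 RPKM in WT. Its input was 54.4 and 60.5 RPKM in KO and 62.3 and 64.4 RPKM in WT. KO was below WT in both replicates in both kinds of library, by 0.18 and 0.31 in RPF and by 0.14 and 0.08 in input on the log2 scale relative to the median gene. The mean ratios were -0.25 ± 0.46 in RPF (SE, adjusted p = 0.994) and -0.11 ± 0.18 in input (SE, adjusted p = 1).

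Translation efficiency was the comparison the profiling was made for, and no ER gene was called in it. By limma 0 of 10321 genes were called higher (0%) or lower (0%), with 301 higher (2.92%) and 184 lower (1.78%) at an unadjusted p of 0.05, none of them a member. In both replicates 4 members were higher in KO, against 23.3% of all genes, and 10 were lower, against 26.2%. A further 17 were higher in replicate 1 and lower in replicate 2, against 28% of all genes, among them all 8 genes with an ERSE (7 as deposited). So were 7 of the 20 members whose promoter was read and held no ERSE (4 as deposited). Of the 7 members with no promoter in the table, 2 were (1 as deposited). Among the 8, Dnajc3 had log2 ratios of only 0.20 and -0.04, and Syvn1 had an RPF level near the pseudocount in replicate 1. In all, 14 members were lower in KO in replicate 1, against 48.7% of all genes, and 27 in replicate 2, against 54.2%. Relative to the median gene, no member differed by 1.5-fold or more in the same direction in both replicates in input, RPF or translation efficiency. The shares of all genes that did were 0.145% higher and 0.107% lower in input, 3.85% and 3.38% in RPF, and 4.5% and 4.24% in translation efficiency. As deposited, Dnajb11 was lower in KO by that much in both replicates in RPF (6.03% of all genes), as were Dnajb9 and Dnajb11 in translation efficiency (6.67%), and no member was higher.

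Sdf2l1, Derl2 and Herpud1 had the highest mean ratio in translation efficiency among members with one direction in both replicates. RPF over input for Sdf2l1 was 3.67 and 2.92 in KO and 2.40 and 2.25 in WT, and for Derl2 it was 3.53 and 3.29 in KO and 2.72 and 2.69 in WT. Relative to the median gene, KO was above WT within each replicate for Sdf2l1 and Derl2, while the KO lysate of replicate 1 lay below the WT lysate of replicate 2. Herpud1, a membrane scaffold of the Hrd1 complex, had 0.939 and 2.67 in KO and 1.12 and 2.04 in WT, which in replicate 1 was higher in KO relative to the median gene only. The mean log2 ratios were 0.69 ± 0.53 for Sdf2l1, 0.53 ± 0.52 for Derl2 and 0.27 ± 0.53 for Herpud1 (SE, adjusted p = 0.995 for each).

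Ssr4, Pdia4 and Dnajb11 were lowest, as in RPF. RPF over input for Pdia4 was 1.59 and 1.34 in KO and 3.67 and 1.87 in WT, and for Dnajb11 it was 1.90 and 0.774 in KO and 3.48 and 1.21 in WT. For Ssr4 it was 0.00909 and 1.25 in KO and 0.0435 and 1.36 in WT. In each table the KO lysate was the lower one for all 3 genes. The mean log2 ratios were -0.72 ± 0.71 for Ssr4, -0.63 ± 0.53 for Pdia4 and -0.55 ± 0.53 for Dnajb11 (SE, adjusted p = 0.995 for each). Hspa5 had a mean of 0.07 ± 0.55, Xbp1 of 0.02 ± 0.52 and Sec61a1 of -0.14 ± 0.53.

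**Figure D4:**
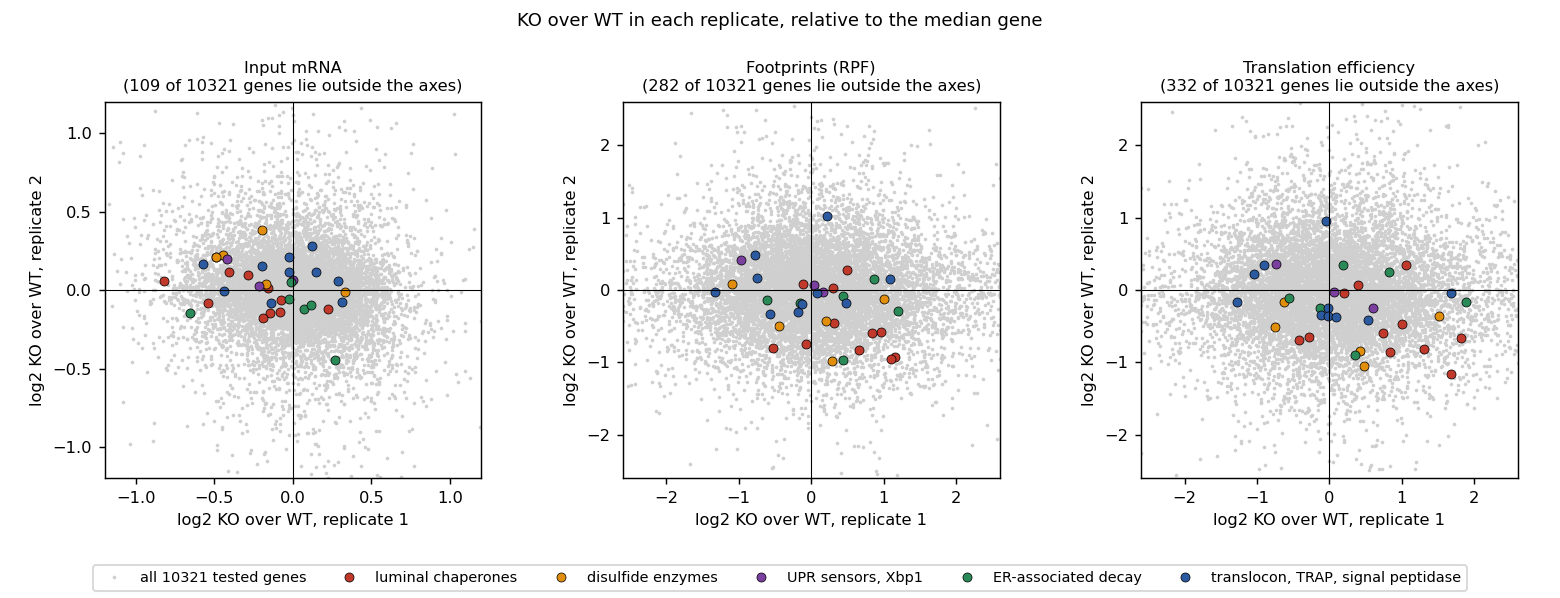
log2 KO over WT in replicate 1 (x axis) against replicate 2 (y axis), relative to the median gene, for input, RPF and translation efficiency, with all 10321 tested genes in grey and the 35 ER genes coloured by role. The ER genes lie within the grey cloud, and 17 of them fall in the lower right quadrant of the translation efficiency panel.

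The disulfide enzymes and the remaining members were spread in the same way. P4hb, the most abundant protein disulfide isomerase of many cells, had an RPF level of 1647 and 271 RPKM in KO and of 1142 and 293 RPKM in WT. Ero1l (Ero1a), the oxidase that recharges it, had 53.3 and 53.4 RPKM in KO and 159 and 50.2 RPKM in WT. Hyou1, a large Hsp70-like chaperone that acts as an exchange factor for BiP, had 122 and 72.8 RPKM in KO and 94.5 and 110 RPKM in WT. Sel1l, the partner of Syvn1, had 74.6 and 27.0 RPKM in KO and 76.3 and 53.2 RPKM in WT. No sign was shared by the replicates of these 4 genes relative to the median gene. Edem1, a lectin-like factor of glycoprotein decay, had 38.5 and 89.5 RPKM in KO and 82.1 and 98.2 RPKM in WT. Derl1, another derlin, had 11.4 and 55.4 RPKM in KO and 18.0 and 62.3 RPKM in WT. Dnajb9, the Hsp40 ERdj4, had 63.9 and 43.0 RPKM in KO and 93.6 and 72.0 RPKM in WT. For these 3 genes KO lay below WT in both replicates, as it did for Ssr2 and Ssr4 of TRAP and for Spcs2.

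In RPF both stress sensors lay below the median member in every library. The RPF level of Atf6 was 9.19 and 30.4 RPKM in KO and 26.0 and 22.7 RPKM in WT, and in replicate 2 it rested on 316 reads in KO and 216 in WT. Ern1 had 22.6 and 9.96 RPKM in KO and 28.3 and 10.2 RPKM in WT, on 154 reads in KO and 144 in WT. Neither had one direction in both replicates relative to the median gene. Pdia6, a disulfide isomerase, had 205 and 101 RPKM in KO and 234 and 200 RPKM in WT, and Ssr3, the gamma subunit of TRAP, had 155 and 289 RPKM in KO and 155 and 327 RPKM in WT. Of the 35 members, 13 overlap another RefSeq gene, and whether reads were counted by strand is not given in the sources used here, so their values may include reads of a neighbour.

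A wider list of the pathway held 104 named genes, of which 95 stood in both tables and 92 were tested. It covers the signal recognition particle, oligosaccharyltransferase, N-glycan trimming, further disulfide enzymes, chaperones, decay factors and regulators. None of the 92 was called in input, RPF or translation efficiency. In RPF 13 were higher in KO in both replicates, against 23.5% of all genes, and 33 were lower, against 25.4%. In translation efficiency 16 were higher in both, against 23.3%, and 31 were lower, against 26.2%. Of the 89 with a translation efficiency level, 26 were above the median gene in all 4 lysates, against 22.4%, and 20 below it, against 23%.

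Genes of the wider list were ranked by mean ratio only among those with the same direction in both replicates. The lowest of these in RPF and in translation efficiency were Man1b1 and Edem3, mannosidases that mark misfolded glycoproteins for decay. Man1b1 had an RPF level of 0.618 and 8.54 RPKM in KO and of 13.6 and 11.3 RPKM in WT. Edem3 had 0.497 and 3.19 RPKM in KO and 8.42 and 6.07 RPKM in WT. Both were lower in KO in each table, a shared direction that the choice of genes required. The gap was wider in replicate 1, where the KO values of both genes lay near the pseudocount of 0.5 RPKM. In replicate 2 the RPF reads were 89 in KO and 108 in WT for Man1b1, and 47 and 82 for Edem3. The highest were Srp14, a protein of the signal recognition particle, and Ufd1l, a cofactor of the p97 segregase. Srp14 had an RPF level of 448 and 171 RPKM in KO and of 167 and 113 RPKM in WT. The Ufd1l values of replicate 2 stand on a gene length of 1 base and were not read as a level. In input the lowest were Ube2j2, a ubiquitin-conjugating enzyme of decay, with 9.51 and 17.1 RPKM in KO and 14.8 and 21.2 RPKM in WT, and Prkcsh, the beta subunit of glucosidase II, with 27.3 and 47.0 RPKM in KO and 40.8 and 53.2 RPKM in WT. The highest were Pdia5, a disulfide isomerase, with 4.49 and 7.17 RPKM in KO and 3.84 and 5.02 RPKM in WT, and Prdx4, the peroxiredoxin of the ER, with 32.5 and 31.5 RPKM in KO and 25.0 and 25.6 RPKM in WT. A direction shared by the replicates was a condition of the choice for these 4, and none passed the test.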

How the data were processed

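Per the labels, footprints and poly(A) input came from the same lysates. The authors deposited RPKM values, 1 table per replicate, with 20605 and 11801 rows, of which 46 are dates in place of gene symbols and were left out. Reads were handled with bcl2fastq, aligned by TopHat2 2.0.14 and quantified by Cuffnorm, on mm10, according to the notes of the submitters. For the annotation, the read filters and the counting behind replicate 2, details were not given in the sources used here. The 4 columns of the authors' own log2 translation efficiency were not used. RPKM divides by the chosen gene length, so a wrong length shifts a level but not KO over WT: 241 genes whose RPF values of replicate 2 stand on 1 base, none a member, were left out of the translation efficiency level. Multiplying RPKM by a RefSeq coding or exon length and the library total gave whole reads in replicate 2, within 0.01 reads. This held for 98.8% (RPF) and 77.9% (input) of genes, where the RPF share also counts genes on a length of 1 base.

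Values were tested with limma 3.58.1 in R 4.3.3 (two-sided, Benjamini-Hochberg over all tested genes, moderated with a trend) on log2(RPKM + 0.5), each library set to the median of the tested genes, with the replicate as a block, which leaves 1 residual degree of freedom. A fold change on this scale understates that of low genes. The test was checked on simulated input values with known changes, drawn with the same spread for every gene and no difference between replicates. That check does not cover RPF or translation efficiency. Same-numbered KO and WT libraries deviated together from the group means (r = 0.78 for input, 0.85 for RPF, 0.83 for translation efficiency). The replicate number is also the table, so pairing and table cannot be told apart. Named genes were Hspa5, Xbp1 and Sec61a1, the 3 highest and 3 lowest members of each comparison with one direction in both replicates, and the 3 highest and lowest by level. Of the wider list, the 2 highest and 2 lowest of each comparison were named, again among genes with one direction in both replicates. Hsp90b1, Calr, Canx, Creld2 and Dnajc3 in RPF, and P4hb, Ero1l, Hyou1, Sel1l, Edem1, Derl1, Dnajb9, Pdia6 and Ssr3, were added after their values were seen. The members, lists, motifs and tests were chosen with earlier results of these data known. Alternatives were other pseudocounts, filters and scalings, no block, and each lysate left out.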

Additional observations from a re-analysis of the deposited data

How the results depend on the processing

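With 2 lysates a genotype and 1 residual degree of freedom, few differences could pass, and the depth of replicate 1 is unknown. No setting called a member in KO against WT. Counts of all genes did move with the filter and the scaling. With a filter at 5 RPKM, input had 5 genes called higher and 6 lower. As deposited, RPF had 9 higher and 16 lower and translation efficiency 7 higher and 10 lower. As deposited, 3 members (against 6) were higher in both replicates in RPF, 16 (against 9) lower in both and 24 (against 14) lower in replicate 1, and 2 (against 4) were higher in both in translation efficiency. The shares of all genes were not counted as deposited for these directions. With a filter at 5 RPKM or quantile normalization, 7 members (against 3) were higher in both replicates in input, and with the 5 RPKM filter 7 (against 4) in translation efficiency. Without the replicate block, 0 genes were called in any comparison. The translation efficiency level then had 0 genes and 0 members called on either side of the median gene, against 2416 and 2572 genes and 18 and 4 members with it. The block changed no call in KO against WT.

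Leaving out a lysate broke a pair, so those fits had no block and set one table against the other. The genes called by translation efficiency level then ranged between 42 and 529 above and between 76 and 670 below the median gene, and the members between 0 and 5 above and between 0 and 3 below. Genes called higher in translation efficiency ranged between 0 and 1. The member median ranged between -0.41 and 0.053 in RPF, between -0.40 and 0.17 in translation efficiency and between 0.59 and 1.00 in level (log2). The mean ratio turned its sign for Sec61g (between -0.31 and 0.71) and Sec61b (between -0.66 and 1.01) in input. In RPF it did so for Ssr4 (between -3.92 and 2.57), Ssr1 (between -1.01 and 2.25) and Derl2 (between -0.065 and 1.08). In translation efficiency it did so for Ssr4 (between -4.29 and 2.85), Derl2 (between -0.062 and 1.13) and Herpud1 (between -0.83 and 1.37).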
